A study of Mus musculus with 15 samples.

Results

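The transcripts of 34 genes of fatty acid oxidation, peroxisomes and ketone body metabolism were followed in mouse livers, liver tumour nodules and thymi. The genes were taken by symbol from a list, and all 34 were found among the 13938 genes of the table. By the main location of their products, 18 were classed as mitochondrial and 11 as peroxisomal. Bdh1, whose product is also mitochondrial, was set apart by function as the 1 ketogenic member. The remaining 4 were the regulator Ppara, the cytosolic thioesterase Acot1, and Vnn1 and Fgf21, targets of this regulator whose products are at the cell surface or secreted. The samples were 15 C57BL/6J tissues in 5 groups of 3: big and small hepatocellular carcinoma (HCC) nodules and thymi of mice given diethylnitrosamine (DEN) and carbon tetrachloride (CCl4), and livers and thymi of normal mice injected with corn oil. DEN is a carcinogen that alkylates DNA, and CCl4 damages hepatocytes. From each of the model mice 8, 15 and 25 came 1 nodule of either size and the thymus. The thymi are named so by their titles, while their tissue fields read as liver or nodule; the titles were followed. The titles assign 1 normal liver to mouse 2 and the other two to mouse 3, so whether the 3 livers, 2N, 3N and 5N in the table, came from 3 animals is not certain; the sources used here give neither age nor sex. Nodules were not set against the non-tumour liver of the same mice, so tumour and treatment cannot be told apart.

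Mitochondrial fatty acid oxidation shortens activated fatty acids stepwise after a carnitine shuttle has carried them through the mitochondrial membranes. Electrons pass through the electron transfer flavoprotein to ubiquinone. Peroxisomes start the oxidation of very long and branched chains and of bile acid intermediates with their own set of enzymes, and fasting livers turn much of the acetyl-CoA into ketone bodies. In rodent liver the nuclear receptor PPARA activates many genes of all these branches.

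Levels are in FPKM, fragment counts divided by transcript length and library size, and their sums over all genes ran from 331746 to 338793 in nodules, 364160 to 377984 in livers and 225669 to 257205 in thymi. Differences are in log2(FPKM + 1), from limma fitted over all genes, and were called at an adjusted p (Benjamini-Hochberg) under 0.05. Each model mouse entered the test against livers as the mean of its nodules. The number of reads behind a value is unknown. The hepatocyte gene Alb lay between 19491 and 26620 FPKM in nodules and 10578 and 12804 FPKM in livers, and the thymocyte gene Rag1 between 232.7 and 450.6 FPKM in thymi and 0.133 and 0.802 FPKM in nodules and livers. Transcripts encoded by mitochondrial DNA made up 2.88% of the FPKM sum in the big nodule of mouse 25, 6.93 to 8.98% in each other nodule and 7.83 to 11.1% in livers.

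RefSeq promoters (250 bases before to 50 after the start, GRCm38.p6) were found for 29 of the 34 genes, 33 promoters in all. Those of Cpt2, Eci1 and Etfdh are printed because these genes had the lowest adjusted p against livers among the mitochondrial members. Capitals mark the GC box GGGCGG, searched on both strands.
Cpt2, chr4:107923540-107923839, minus strand: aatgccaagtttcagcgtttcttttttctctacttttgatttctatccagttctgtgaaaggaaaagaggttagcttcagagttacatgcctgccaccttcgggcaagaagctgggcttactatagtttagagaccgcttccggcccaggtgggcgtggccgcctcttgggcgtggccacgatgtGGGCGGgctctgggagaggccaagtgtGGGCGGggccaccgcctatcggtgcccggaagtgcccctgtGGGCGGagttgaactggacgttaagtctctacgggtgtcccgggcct
Eci1, chr17:24426433-24426732, plus strand: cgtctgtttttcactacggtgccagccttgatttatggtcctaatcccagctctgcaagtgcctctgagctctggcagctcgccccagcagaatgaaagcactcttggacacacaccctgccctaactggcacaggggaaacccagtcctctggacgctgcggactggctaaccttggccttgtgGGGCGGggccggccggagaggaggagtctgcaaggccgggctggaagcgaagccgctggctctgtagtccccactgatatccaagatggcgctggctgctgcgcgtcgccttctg
Etfdh, chr3:79628718-79629017, minus strand: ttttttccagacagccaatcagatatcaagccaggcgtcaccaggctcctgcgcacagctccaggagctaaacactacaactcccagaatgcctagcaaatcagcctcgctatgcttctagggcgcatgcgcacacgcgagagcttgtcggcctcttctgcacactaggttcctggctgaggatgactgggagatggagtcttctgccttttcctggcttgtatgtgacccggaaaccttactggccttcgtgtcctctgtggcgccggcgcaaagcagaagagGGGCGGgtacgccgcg
The Cpt2 promoter held 3 GC boxes and the other two held 1 each. The box was in 22 of the 33 member promoters (66.7%) and in 35.7% of all 32851 promoters of the table. Among the 17 promoters of members lower in nodules it was in 11 (64.7%). The full set was not limited to genes expressed in these samples, and the shares were not tested. The hexamer AGGTCA, the core of many nuclear receptor sites, was in none of the 3 printed windows, in 7 of the 33 (21.2%) and in 16.3% of all. The spaced pair AGGNCANAGGNCA, a loose form of the PPARA site, was in 0 of the 33 and in 0.381% of all. Both were searched on both strands, none of the marked boxes overlaps another motif, and these matches describe letters in short windows, not binding.

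Most of the fatty acid oxidation machinery was lower in nodules than in normal livers. Of the 34 members, all of which passed the filter on low values, 19 were lower and 2 were higher, and 13 did not pass the threshold. Of all 10669 genes tested, 13.1% were lower and 27.4% were higher. The members' median difference was -0.66, against 0.13 over all genes. The mitochondrial class, which leaves out Bdh1, had 11 lower and 1 higher of 18 with a median of -0.67. The peroxisomal class had 7 lower and 0 higher of 11 with a median of -0.96. Every nodule lay below every liver for 15 members and above for 1, Bdh1; over all genes the shares were 12.3% below and 27.4% above. The scaling set the median of all genes, which was -0.04 with quantile normalization and 0.24 with equal sums. It also set the split of all calls, 2919 higher and 1397 lower as deposited and 2121 higher and 2216 lower with median-of-ratios scaling. The members' median minus that of all genes was -0.79 and lay between -0.87 and -0.53 in the 17 alternatives run. Without the small nodule of mouse 15, or without the big nodule of mouse 25, 20 members were lower and 3 were higher. Members higher numbered 4 without model mouse 8 and 1 without model mouse 15 or without any one of the livers.

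**Figure D1:**
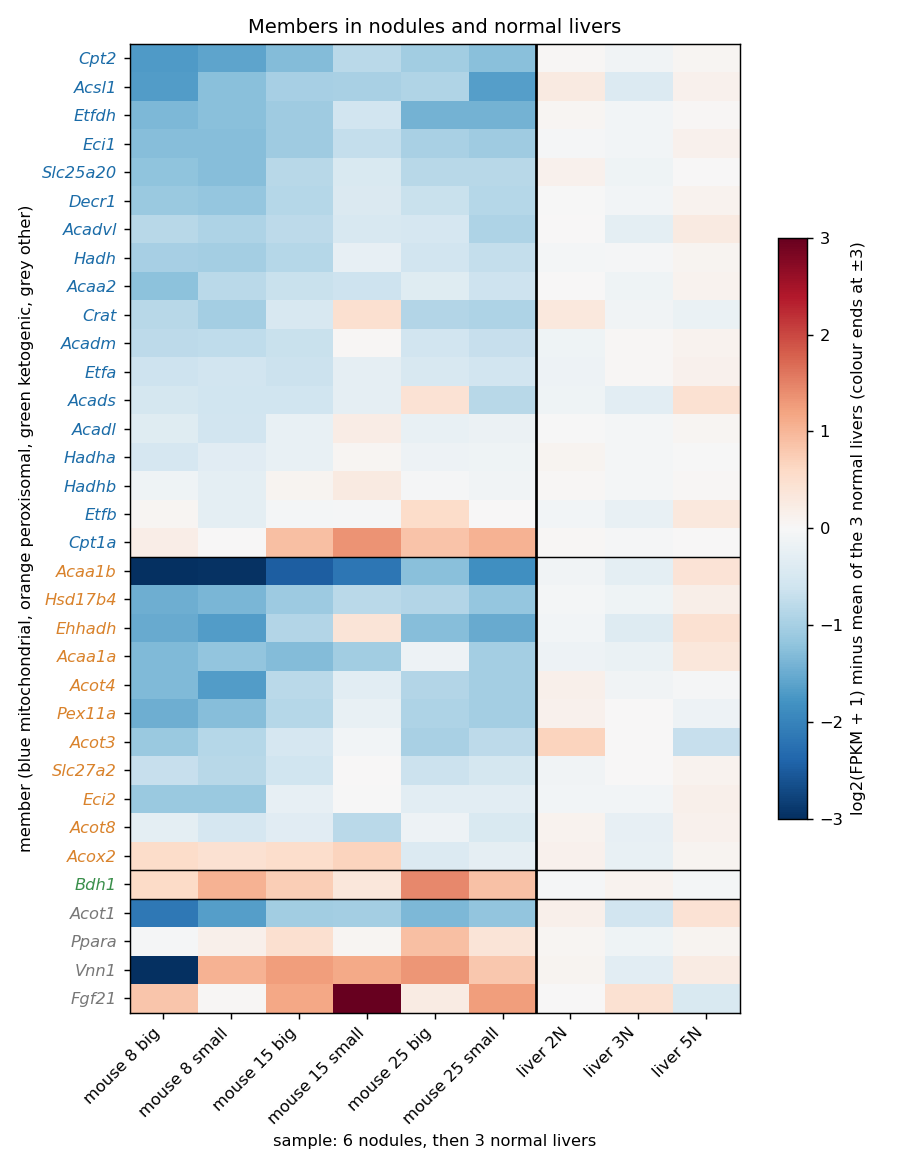
Difference of each member (rows, grouped by class) from the mean of the 3 normal livers, in log2(FPKM + 1), for the 6 nodules and then the 3 livers (columns). Blue cells are lower and red cells higher; most rows are blue in the nodules, the column of the small nodule of mouse 15 is the palest, and Bdh1 and, outside mouse 8, Cpt1a are red.

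As shares of all FPKM, the mitochondrial members summed to 0.327, 0.395 and 0.473% in the big nodules of mice 8, 15 and 25, to 0.337, 0.488 and 0.398% in their small nodules, and to 0.505, 0.471 and 0.580% in livers. The peroxisomal members summed to 0.131, 0.174 and 0.216% in the big nodules, 0.138, 0.251 and 0.180% in the small nodules and 0.342, 0.321 and 0.459% in livers. As shares, the peroxisomal sums did not overlap between nodules and livers. The mitochondrial shares of the small nodule of mouse 15 and the big nodule of mouse 25 reached the lowest liver. In FPKM the mitochondrial sums did not overlap either, with 1106 to 1619 in nodules and 1769 to 2114 in livers. Acaa1b was the largest peroxisomal member in livers (513 to 842 FPKM, against 39.2 to 265 in nodules), and the gap in peroxisomal shares depends on it. In nodules, summed markers of some other cells were higher than in livers. The sums were 179 to 271 against 116 to 133 FPKM for 8 macrophage genes. For 7 stellate cell and fibroblast genes they were 37.4 to 56.2 against 12.5 to 19.0 FPKM. For 6 endothelial genes they were 57.4 to 84.3 against 29.4 to 33.6 FPKM. None of the genes in these lists was at 0 in a nodule or liver. Single genes went the other way: Lrat of the stellate cells (1.05 to 2.52 FPKM in nodules, 2.56 to 3.41 in livers) and Tek of the endothelium (2.96 to 3.94 FPKM in nodules, 3.95 to 4.68 in livers) were lower in every nodule, and Clec4f, Csf1r, Des and Kdr overlapped. For 5 cholangiocyte genes the sums were 55.4 to 387 against 32.6 to 42.6 FPKM, most of it from Spp1; Krt7 was between 0 and 0.162 FPKM in nodules. Adipocyte genes (7 of 8 found) summed to 405 to 899 FPKM in nodules and 810.3 to 1117 FPKM in livers, most of it from Pck1, which hepatocytes also express, with Adipoq at 0 in every nodule. The 7 brown adipocyte genes were lower in sum in every nodule, with 5.09 to 29.1 FPKM against 305 to 449 FPKM in livers. The 9 hepatocyte genes found of 10 summed to 35775 to 51373 FPKM in nodules and 21384 to 24353 in livers. Alb was the largest part. In that list Cps1 was lower in every nodule (305 to 494 FPKM, against 545 to 628 FPKM in livers), and Ttr, Hnf4a and Apob overlapped. Their part in the lower levels of the members was not tested, and in bulk tissue fewer cells of a type and less RNA per cell cannot be told apart.

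**Figure D2:**
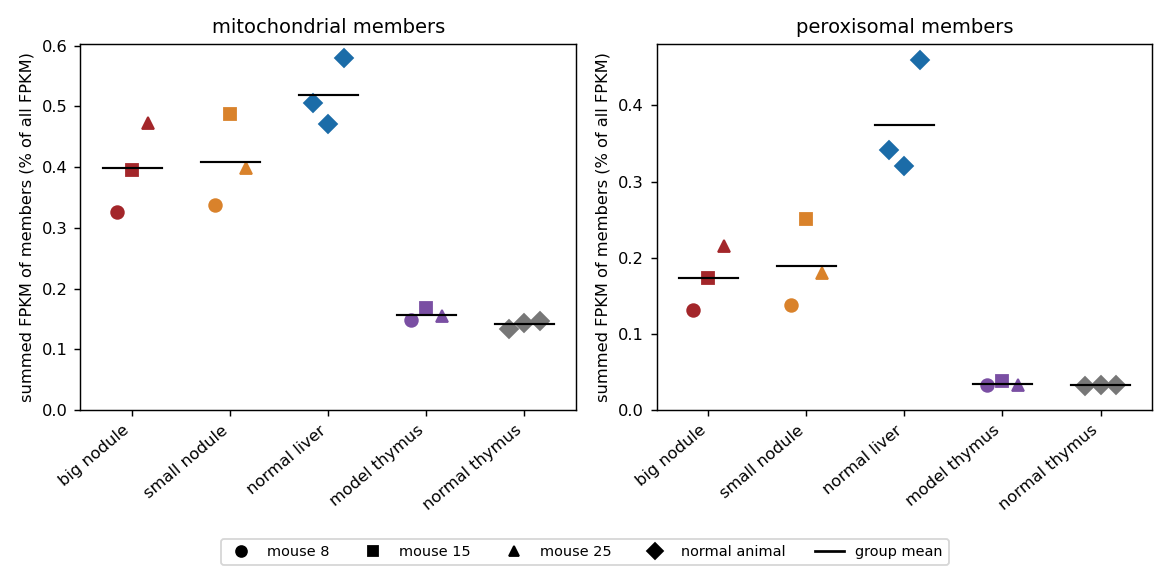
Summed FPKM of the 18 mitochondrial (left) and 11 peroxisomal (right) members as a percentage of all FPKM in each of the 15 samples, with lines at group means and symbols for the mouse. Peroxisomal sums reached at most 0.251% in nodules and were at least 0.321% in livers; thymi held 0.133 to 0.168% for the mitochondrial and 0.0313 to 0.0379% for the peroxisomal members.

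The carnitine shuttle split, with its entry enzyme on one side and its later steps on the other. Cpt1a encodes the carnitine palmitoyltransferase of the outer mitochondrial membrane, the main control point of entry in liver. It had 76.5, 126 and 121 FPKM in big nodules and 67.4, 171 and 139.8 FPKM in small nodules of mice 8, 15 and 25, against 68.6, 65.1 and 67.4 FPKM in livers. All 4 nodules of mice 15 and 25 thus lay above every liver, while those of mouse 8 lay near them. The difference was 0.72 (SE 0.249, adjusted p = 0.0493), a call that 10 of 17 alternatives lost, and it was 1.04 without mouse 8. Cpt2, the partner enzyme on the inner membrane, had 18, 24.1 and 28.8 FPKM in big and 19.7, 34.3 and 24.7 FPKM in small nodules, against 62.0, 56.5 and 63.6 FPKM in livers. No nodule came near a liver, and the difference was -1.28 (SE 0.168, adjusted p = 0.000713). Slc25a20, the translocase that exchanges acylcarnitine for carnitine between these enzymes, was lower too: 10.9, 14.4 and 14.5 FPKM in big and 10.3, 18.8 and 14.5 FPKM in small nodules, against 28.7, 23.9 and 26.8 FPKM in livers (-0.90, SE 0.169, adjusted p = 0.0039). Crat, the acetyltransferase that buffers acetyl-CoA, ran from 4.02 to 13.2 FPKM in nodules and 7.89 to 11.7 FPKM in livers and did not pass (-0.61, adjusted p = 0.101).

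Of the members that activate fatty acids, both were lower, Slc27a2 less firmly, while Acsl5, a related synthetase outside the members, was higher (1.21, adjusted p = 0.000446). Acsl1, a long-chain acyl-CoA synthetase, had 30.0, 48.9 and 51.7 FPKM in big and 40.6, 49.2 and 30.6 FPKM in small nodules, against 118, 73.9 and 108 FPKM in livers (-1.24, SE 0.205, adjusted p = 0.00212). Its groups did not overlap. Slc27a2, a transporter and very-long-chain synthetase found in peroxisomes, fell by 0.55 (SE 0.153, adjusted p = 0.0228); its small nodule of mouse 15 stood at 329.7 FPKM, inside the liver range of 303 to 349.8, and the other 5 nodules between 182 and 226 FPKM. Its call was lost in 7 of 17 alternatives.

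Among the acyl-CoA dehydrogenases, which open each round for chains of a given length, Acadvl (very long chains) averaged 79.5 ± 6.98 FPKM in nodules and 134 ± 25.9 FPKM in livers (SD, 3 mice and 3 livers), a difference of -0.74 (SE 0.163, adjusted p = 0.00828). Acadm (medium chains) averaged 71.0 ± 13.7 FPKM in nodules and 104 ± 8.70 FPKM in livers (-0.58, adjusted p = 0.0183); its small nodule of mouse 15 was at 107 FPKM, within the livers, and 7 of 17 alternatives lost the call. Acadl (long chains; 92.5 to 161 FPKM in nodules, 133 to 145 in livers) and Acads (short chains; 23.1 to 57.3 FPKM in nodules, 33.4 to 57.5 in livers) overlapped and did not pass. Etfdh, the oxidoreductase that hands the electrons of these enzymes from the flavoprotein to ubiquinone, had 15.9, 19.6 and 15.1 FPKM in big and 17.1, 27.8 and 15.0 FPKM in small nodules, against 43.3, 39.2 and 43.1 FPKM in livers (-1.17, SE 0.169, adjusted p = 0.0011), with a wide gap between the groups. Etfa, the alpha subunit of the flavoprotein, averaged 139 ± 7.64 FPKM in nodules and 199.5 ± 18.8 FPKM in livers (-0.52, adjusted p = 0.0117), while Etfb, the beta subunit, averaged 174 ± 28.5 and 168 ± 33.6 FPKM (0.04, adjusted p = 0.878).

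Hadha and Hadhb, the subunits of the trifunctional protein that handles long chains, averaged 33.6 ± 4.18 and 18.8 ± 2.77 FPKM in nodules, against 38.9 ± 2.1 and 19.2 ± 0.787 FPKM in livers, and neither passed (adjusted p = 0.226 and 0.86). Hadh, the dehydrogenase for shorter chains, averaged 41.3 ± 7.08 FPKM in nodules and 68.3 ± 3.82 FPKM in livers (-0.74, SE 0.146, adjusted p = 0.00511). Acaa2, the mitochondrial thiolase, averaged 339 ± 60.2 FPKM in nodules and 550.4 ± 46.0 FPKM in livers (-0.72, adjusted p = 0.00986). The auxiliary enzymes for unsaturated chains were both lower. Eci1, an enoyl-CoA isomerase, had 45.3, 53.0 and 56.5 FPKM in big and 45, 67.4 and 52.5 FPKM in small nodules, against 108, 104 and 123 FPKM in livers (-1.06, SE 0.142, adjusted p = 0.00077). Decr1, the dienoyl-CoA reductase, averaged 27.3 ± 4.92 FPKM in nodules and 49.3 ± 3.31 FPKM in livers (-0.85, adjusted p = 0.00315). In both genes every nodule was below every liver.

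**Figure D3:**
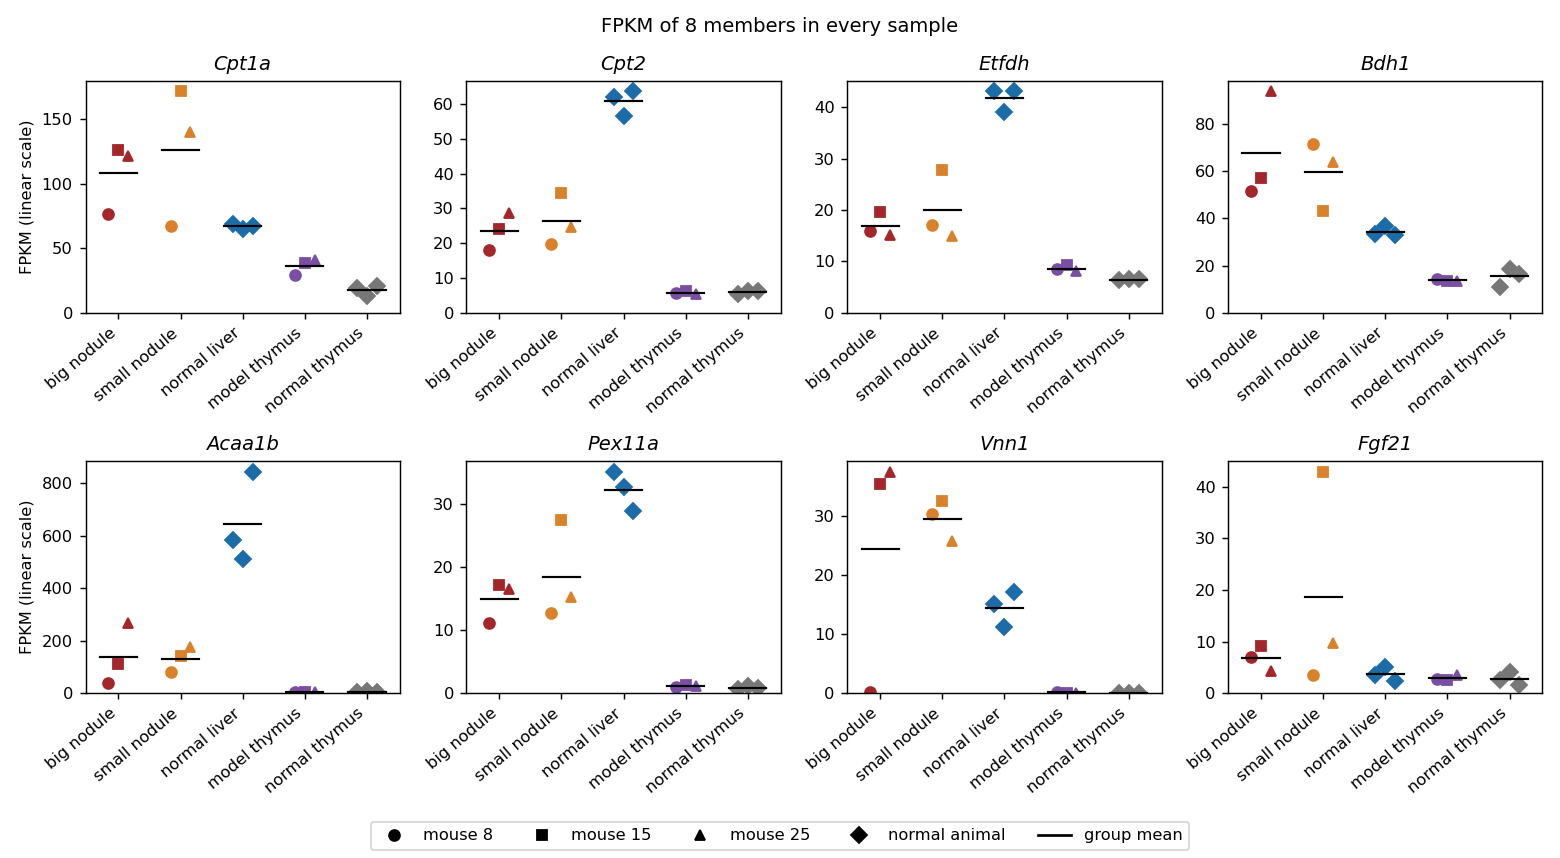
FPKM of 8 members in every sample on linear axes starting at 0, with lines at group means and symbols for the mouse. Cpt2, Etfdh, Acaa1b and Pex11a have all nodules below the livers, Bdh1 has all above, Cpt1a is higher in mice 15 and 25, and Vnn1 and Fgf21 each have 1 nodule far from the rest.

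Among the peroxisomal members, Acaa1b, a thiolase that closes the peroxisomal cycle and responds to PPARA activators in rodents, differed most. It had 39.2, 112 and 265 FPKM in big and 80.1, 139.6 and 175 FPKM in small nodules, against 582, 513 and 842 FPKM in livers (-2.45, SE 0.439, adjusted p = 0.00319). Nodules of mouse 8 were the lowest and those of mouse 25 the highest, all below the livers. Its paralog Acaa1a averaged 20.6 ± 6.43 FPKM in nodules and 41.1 ± 9.15 FPKM in livers (-1.0, adjusted p = 0.00826), with the big nodule of mouse 25 at 36.4 FPKM, within the livers. Acaa1a and Acaa1b are close paralogs, and Acot1, Acot3 and Acot4 are related paralogs; how reads were divided between such copies was not examined, so each value is uncertain. Hsd17b4, the D-bifunctional protein of branched and very long chains, averaged 78.6 ± 13.5 FPKM in nodules and 171 ± 19.4 FPKM in livers (-1.13, SE 0.162, adjusted p = 0.0011). Ehhadh, the L-bifunctional protein, fell by 1.08 (SE 0.359, adjusted p = 0.0439), but its small nodule of mouse 15 was at 110.3 FPKM against 64.8 to 116 FPKM in livers, the other 5 nodules were at 25.8 to 45.4 FPKM, and 9 of 17 alternatives lost the call. Pex11a, a membrane protein of peroxisome division, averaged 16.7 ± 5.31 FPKM in nodules and 32.3 ± 3.09 FPKM in livers (-0.96, adjusted p = 0.00747).

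Of the thioesterases, which release free fatty acids from acyl-CoA, Acot4 had 2.49, 4.01 and 3.73 FPKM in big and 1.73, 6.03 and 3.31 FPKM in small nodules, against 8.70, 7.07 and 7.47 FPKM in livers (-1.0, adjusted p = 0.00945). The cytosolic Acot1 had 0.208 to 1.62 FPKM in nodules and 2.57 to 6.19 FPKM in livers (-1.40, SE 0.298, adjusted p = 0.00722); these low values make the log2 difference smaller than the fold in FPKM. Acot8 (2.74 to 4.91 FPKM in nodules, 4.51 to 6.24 in livers; adjusted p = 0.0515) and Acot3 (0.101 to 1.26 FPKM in nodules, 0.477 to 2.81 in livers; adjusted p = 0.124) did not pass, and Acot3 was near the detection filter of 1 FPKM. Eci2, an enoyl-CoA isomerase shared with mitochondria, was at 9.89 and 9.90 FPKM in mouse 8 and 18 to 22.3 FPKM in the other 4 nodules, against 21.2 to 25.2 FPKM in livers (adjusted p = 0.13). Acox2, the oxidase of branched chains and bile acid intermediates, was the peroxisomal member with the highest difference, 0.25 (adjusted p = 0.445): it was at 66.7 to 77.0 FPKM in mice 8 and 15 and 36.1 and 40.1 FPKM in mouse 25, against 41.4 to 52.8 FPKM in livers. Eci2 and Acox2 thus split by mouse rather than by nodule size.

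Bdh1, the mitochondrial dehydrogenase that interconverts acetoacetate and 3-hydroxybutyrate, went the other way. It had 51.4, 57.3 and 94.1 FPKM in big and 71.4, 43.4 and 64.1 FPKM in small nodules, against 33.2, 36.6 and 32.9 FPKM in livers. The groups did not overlap, and the difference was 0.83 (SE 0.169, adjusted p = 0.00571), called in all 17 alternatives. Among the related ketone body genes, the thiolase Acat1 fell by 0.69 (SE 0.156, adjusted p = 0.00918). Oxct1, which commits ketone bodies to use and was chosen after its value was seen, was higher by 0.61 (adjusted p = 0.0241). The monocarboxylate carriers Slc16a6 and Slc16a7 were higher by 1.41 and 0.74 (adjusted p = 0.00119 and 0.00787).

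The regulator Ppara did not pass the test. It ran from 11.6 to 23.2 FPKM in nodules and from 10.8 to 12.7 FPKM in livers (0.32, SE 0.166, adjusted p = 0.159). Vnn1, a pantetheinase anchored at the cell surface, was at 0.243 FPKM in the big nodule of mouse 8 and 30.2 FPKM in its small nodule. The other 4 nodules were at 25.7 to 37.3 FPKM and livers at 11.2 to 17.1 FPKM, so 5 of 6 nodules were above every liver and 1 was almost without the transcript (difference 0.32, SE 0.596, adjusted p = 0.70). Fgf21, a hormone secreted by stressed and fasting liver, had 7.01, 9.06 and 4.33 FPKM in big and 3.54, 42.9 and 9.64 FPKM in small nodules, against 3.48, 5.11 and 2.27 FPKM in livers (1.14, adjusted p = 0.0763). The small nodule of mouse 15 stood alone at the top. Of the partners, Rxra, the receptor with which PPARA pairs, and the coactivator Ppargc1a did not pass (0.12 and 0.23, adjusted p = 0.646 and 0.391), and the sign of both turned under other settings, to -0.0823 for Rxra with median-of-ratios scaling and to -0.0361 for Ppargc1a with quantile normalization.

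Around the members, 131 further genes were listed, of which 122 were in the table and 116 were tested: 52 were lower and 14 were higher in nodules. The list was written with earlier results of these data known. Of 24 other genes tested that were listed under mitochondrial oxidation, 13 were lower and 2 higher, with a median of -0.60. Much of this list is not specific to fatty acids. The lower genes of branched-chain amino acid or propionate breakdown were Hibadh, Mcee, Hsd17b10, Pcca, Pccb, Mut, Acad8, Hibch and Ivd. Among the rest Slc22a5, Acad10, Acad11 and Etfbkmt were lower, and Echs1, Acad9, Acot13 and Mlycd were among those that did not pass. Hibadh and Mcee, enzymes of valine and propionate breakdown, fell by 1.17 and 0.86 (adjusted p = 0.0002 and 0.000938), while Acsl5, another acyl-CoA synthetase, averaged 242 ± 21.1 FPKM in nodules and 104 ± 14.4 FPKM in livers (1.21, adjusted p = 0.000446), opposite to Acsl1. The mitochondrial thioesterase Acot9 was also higher (1.42, adjusted p = 0.000421). Of 28 other peroxisomal genes, 18 were lower and 2 higher, with a median of -0.85. Nudt7, a hydrolase of peroxisomal CoA, had 4.96 to 13.7 FPKM in nodules and 92.5 to 105 FPKM in livers (-3.32, adjusted p = 3.21e-05). Ephx2, an epoxide hydrolase of cytosol and peroxisomes, and the bile acid conjugating enzyme Baat fell by 2.27 and 1.97 (adjusted p = 4.21e-05 and 2.01e-05), and the transporter Abcd2 was higher by 4.10 (adjusted p = 6.47e-06). Of 22 genes listed under peroxisome biogenesis 6 were lower and 2 higher, with a median of -0.30, beside 13.1% lower and 27.4% higher of all genes. The import receptor Pex5 and its docking partner Pex13 fell by 0.95 and 0.70 (adjusted p = 0.00218 and 0.0031), and Mpv17l fell by 1.38 (adjusted p = 0.00477). The 2 higher genes are not specific to peroxisomes. Mpv17, a mitochondrial membrane protein, was higher by 0.53 (adjusted p = 0.0103), and Mff, a division factor shared with mitochondria, by 0.43 (adjusted p = 0.028). The 9 other ketone body genes tested had 2 lower, Acat1 and Acat2 (-0.72, adjusted p = 0.00742), and 3 higher.

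**Figure D4:**
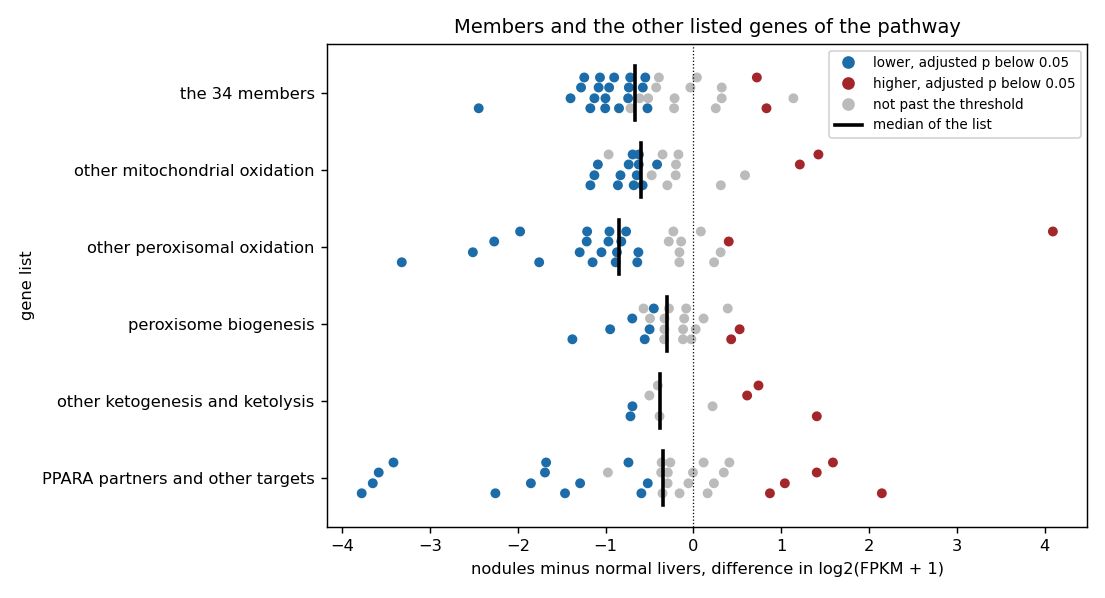
Difference in log2(FPKM + 1) between nodules and normal livers for each tested gene (points) of the 34 members and of 5 lists of related genes, with black bars at the medians. The list medians are -0.60, -0.85, -0.30, -0.39 and -0.35 from the second row down; Abcd2 is the point at 4.10.

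Of 33 genes tested from the list of partners and other targets of PPARA, 13 were lower and 5 were higher, with a median of -0.35. Whether each of them answers to PPARA in these tissues was not tested. Of all genes tested, 13.1% were lower and 27.4% were higher. Among the omega-hydroxylases, which open an alternative route of fatty acid breakdown, 4 fell and 1 was higher. Cyp4a10 had 1.07 to 22.3 FPKM in nodules and 48.0 to 157 FPKM in livers (-3.58, adjusted p = 0.00275), and Cyp4a14 had 0.137 to 6.35 FPKM in nodules and 14.7 to 112 FPKM in livers (-3.78, adjusted p = 0.0063). Cyp4a12a and Cyp4a12b fell by 3.65 and 3.42 (adjusted p = 0.000889 and 0.000534). Cyp4a31 and Cyp4a32, named after their values were seen, went apart: Cyp4a31 had 13.5 to 45.1 FPKM in nodules and 2.07 to 6.85 FPKM in livers (2.15, adjusted p = 0.00315), and Cyp4a32 had 2.09 to 11.3 FPKM in nodules and 5.42 to 12.3 FPKM in livers and did not pass (-0.97, adjusted p = 0.0794). These genes are close copies of each other, so the split of reads among them is uncertain. Pdk4, a kinase that shuts pyruvate dehydrogenase, averaged 4.84 ± 2.37 FPKM in nodules and 21.0 ± 14.3 FPKM in livers (-1.85, adjusted p = 0.0109), and Acsm1, a medium-chain acyl-CoA synthetase, fell by 1.69 (adjusted p = 9.69e-05). Angptl4, a secreted inhibitor of lipoprotein lipase, did not pass (-0.29, adjusted p = 0.382), and Ctsz, a lysosomal protease, was higher by 0.87 (adjusted p = 0.000571).

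The nodules differed among themselves, by mouse and by single nodule. The median over all 34 members, relative to the mean of the livers, was -1.05, -0.65 and -0.55 in the big nodules of mice 8, 15 and 25 and -0.89, -0.23 and -0.76 in their small nodules. Mouse 8 thus had the lowest members and the small nodule of mouse 15 the highest. The small nodule of mouse 15 was the highest of the 6 nodules for 24 of 34 members (70.6%), against 35.1% of the 10669 genes tested, and in mouse 8 the big nodule was the lowest for 14 (41.2%, against 21.6% of genes) and the small one for 13 (38.2%, against 14.5% of genes). The big nodule of mouse 25 was the highest for the other 10 members (29.4%, close to its 22.4% of genes), among them Acads (57.3 FPKM, other nodules 23.1 to 34.8) and Etfb (246 FPKM, other nodules 135 to 173). This ordering of nodules was seen in the values themselves and was given no test.

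Nodule size made no difference that passed the test. Of the 33 members tested, limma called 0 between big and small nodules, 0.0% of 10415 genes were called in either direction, and at an unadjusted p under 0.05 there were 0 members and 417 genes. The lowest p was that of Acot8, with 4.36, 4.19 and 4.91 FPKM in big nodules and 3.64, 2.74 and 3.82 FPKM in small nodules (0.33, SE 0.150, interval -0.03 to 0.68, adjusted p = 0.949). Big exceeded small in all 3 mice, and Acot8 was the only member without overlap, in a comparison where 3.16% of genes had all big nodules above and 6.0% all below. Etfb, Acads and Vnn1 followed, with differences of 0.30 (-0.17 to 0.76), 0.34 (-0.36 to 1.04) and -1.34 (-4.16 to 1.48), each with an adjusted p of 0.949. The difference of Acads turned to -0.13 without mouse 25 and that of Vnn1 to 0.32 without mouse 8. With mouse as a paired term, 0 genes were called as well.

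In thymus no member passed the test. The 28 members that passed the filter had a median difference of 0.03 between model and normal thymi, against 0.05 over all genes; Ppara, Slc27a2, Acox2, Acot3, Acot4 and Vnn1 did not pass the filter, and Acot3 is listed at 0 in all 6 thymi. limma called 0 of them, and 0.0% of 11332 genes were called in either direction; 4 members and 1159 genes had an unadjusted p under 0.05. Cpt1a had 28.9, 38.9 and 40.8 FPKM in thymi of model mice 8, 15 and 25, against 19.3, 13.3 and 21.1 FPKM in normal thymi (0.99, SE 0.198, 95% interval 0.53 to 1.45, adjusted p = 0.481). All model thymi were above all normal thymi, as they were for Etfdh (8.47, 9.22 and 8.07 against 6.35, 6.57 and 6.50 FPKM; 0.36, adjusted p = 0.481) and Slc25a20 (5.63, 5.26 and 5.29 against 3.72, 4.39 and 4.50 FPKM; 0.30, adjusted p = 0.481). These 3 of 28 compare with 12.3% of all genes above and 6.53% below without overlap. Acads, the other member of the 4 with the lowest p, had 9.18, 11.6 and 8.96 FPKM in model and 14.3, 13.5 and 11.5 FPKM in normal thymi (-0.37, adjusted p = 0.481), with model mouse 15 inside the normal range. Macrophage genes summed to 247 to 371 FPKM in model and 196 to 293 FPKM in normal thymi, adipocyte genes to 30.1 to 35 and 30.1 to 64.0 FPKM, and brown adipocyte genes to 3.97 to 5.91 and 4.85 to 11.4 FPKM, with Ucp1 between 0 and 0.0497 FPKM in model and 0 and 1.53 FPKM in normal thymi. Endothelial genes summed to 27.5 to 36.1 FPKM in model and 19.7 to 24.1 FPKM in normal thymi, without overlap, as for Cpt1a, Etfdh and Slc25a20, and stellate cell and fibroblast genes to 17.3 to 26.5 and 12.8 to 18.8 FPKM. The part of these cell markers in the thymus values was not tested.

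Members differed widely in how far normal liver exceeded normal thymus. Acox2, Slc27a2, Vnn1, Ppara, Acot3 and Acot4 were at most 0.946 FPKM in normal thymi. All but Slc27a2 were near or at 0 there, so no fold is given for these members. The ratio of mean FPKM in normal liver to normal thymus was 125 for Acaa1b. It was 1.32 for Fgf21, 1.71 for Hadhb, 1.88 for Eci2, 2.08 for Hadha and 2.22 for Bdh1. Acot8 was the member with the lowest ratio, 0.57, and thus the higher level in thymus.

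Whether the model difference was unlike in liver and thymus was tested as an interaction over 12 values. It was lower in the liver for 17 members and higher for 1, Bdh1 (0.96, SE 0.259, adjusted p = 0.0193), of 34 tested; of all 12683 genes, 7.62% were lower and 14.6% higher. Members below the filter in thymus entered through liver alone. Of these Acot4 was among the 17, with 0.0504 to 0.135 FPKM over the 6 thymi, so its thymus difference on the log2(FPKM + 1) scale lay near 0 by construction and its value restates the nodule difference. Etfdh had the strongest such difference by p (-1.53, SE 0.199, adjusted p = 0.000164), followed by Cpt2 (-1.26, SE 0.203, adjusted p = 0.000815) and Slc25a20 (-1.20, SE 0.205, adjusted p = 0.00117). The difference of Cpt1a did not differ between organs beyond its error (-0.26, SE 0.346, adjusted p = 0.65): it was positive in both. The calls for members lower in the liver numbered 9 without normal mouse 2 and 11 without model mouse 8.

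**Figure D5:**
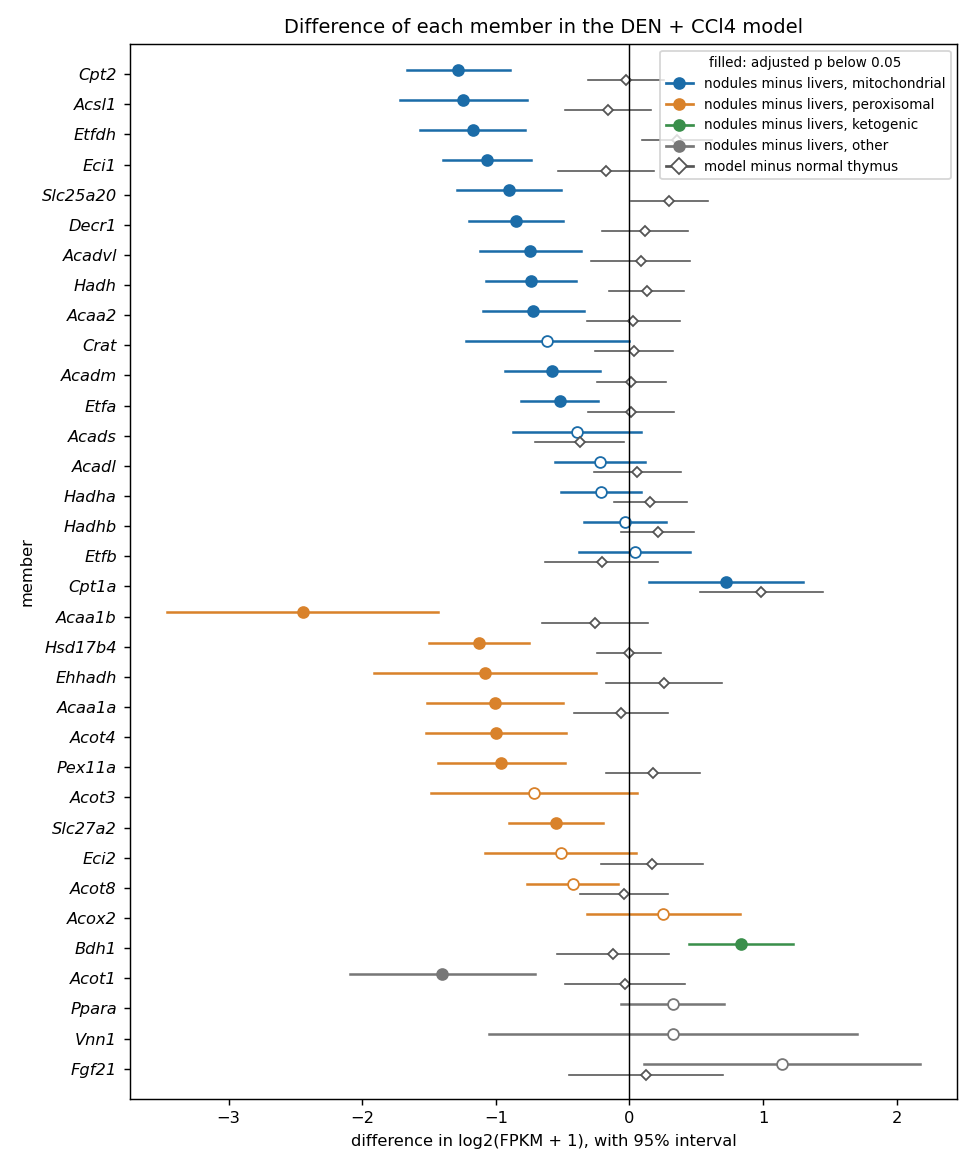
Difference in log2(FPKM + 1) of each member with its 95% interval, nodules minus normal livers (circles, coloured by class, filled where the adjusted p was under 0.05) and model minus normal thymus (open diamonds). Most circles lie left of 0, with Bdh1 at 0.83 and Cpt1a at 0.72 filled on the right, and the diamond of Cpt1a lies at 0.99.

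The transcript table resolved 73 transcripts of the members, of which 58 were tested; 15 transcripts, each of another gene, were lower in nodules and 0 higher, against 6.52% lower and 11.8% higher of 16969 transcripts. Leaving out 1 liver or model mouse left between 3 and 14 member transcripts lower, 3 without the liver 5N, 5 without the liver 2N, 8 without model mouse 8 or 25 and 9 without the liver 3N. At an unadjusted p under 0.05 limma gave 4 of the 58 member transcripts higher, beside 5452 of the 16969 transcripts in either direction. For genes with 1 tested transcript, such as Eci1 (Eci1-201, -1.06, adjusted p = 0.00568), the transcript repeated the gene. For others the estimated split between transcripts was unstable. Etfdh-202 was called lower (-3.0, SE 0.665, adjusted p = 0.0288) with 0, 31.1 and 35 FPKM in big and 24.9, 0 and 19.4 FPKM in small nodules, against 62.0, 59.9 and 103 FPKM in livers, while Etfdh-201 was not (-0.74, adjusted p = 0.323). The 2 nodules listed at 0 for Etfdh-202 had the highest values of Etfdh-201, 44.5 and 78.7 FPKM. Hadhb, which did not pass as a gene, had transcripts of opposite sign that did not pass either, with Hadhb-201 at 2.71 to 22.8 FPKM in nodules and 3.48 to 3.72 in livers (1.17, adjusted p = 0.0774) and Hadhb-202 at 6.37 to 51.8 FPKM in nodules and 48.2 to 54.1 in livers (-0.83, adjusted p = 0.0743). For Bdh1, the transcript Bdh1-203 had 37.8 to 75.6 FPKM in nodules and 8.39 to 27.4 FPKM in livers (1.54, adjusted p = 0.0592) and Bdh1-201 had 26.3 to 70.0 FPKM in nodules and 22.5 to 65.8 FPKM in livers (0.10, adjusted p = 0.898). Neither passed.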

How the data were processed

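Polyadenylated RNA was sequenced with a stranded kit on an Illumina instrument, per the labels' protocols. FastQC 0.11.7, cutadapt, HISAT2 2.1.0, StringTie 1.3.3 and mm10 are named, per the submitters' processing notes; neither annotation release nor strand setting is given in the sources used here. The authors deposited FPKM per gene and per transcript, per the file headers. Without counts the depth is unknown, so precision rests on the spread between samples. p-values measure only that spread, which may be partly technical for the livers.

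From these values log2(FPKM + 1) was computed, and genes with at least 1 FPKM in at least 3 samples of a comparison were kept. limma 3.58.1 (R 4.3.3, statmod 1.5.0; trend, two-sided) was fitted over all kept genes with Benjamini-Hochberg adjustment. Big and small nodules were averaged per mouse, except when set against each other. Class values are counts and medians, with no test. The fit was also run on simulated data, drawn independently for each sample and so without the shared deviation of nodules of 1 mouse given next. Its outcome is not reported here, and no result above rests on it. Big and small nodules of 1 mouse, paired by the animal named in the titles, deviated together (r = 0.307, 0.256 and 0.320 over genes). Between mice r was -0.236 to -0.0457. Deviations were taken from means of groups of 3, so positive values within mice push those between mice below 0, and the latter are no separate baseline. Nodules and thymus of 1 mouse gave 0.0643, 0.0853 and 0.0536.

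The members and lists were chosen with earlier results of these data known. All 34 members are described. Differences and adjusted p are given for members past the threshold, or for the 4 with the smallest p where fewer passed. Up to 4 genes per related list were named by adjusted p, plus others fixed by name, some of which are not reported here. Alternatives varied the pseudocount, filter, scaling, nodule size, replicates and pairing. Promoter sequences came from RefSeq.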

Additional observations from a re-analysis of the deposited data

Results flagged for a closer look

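In 11 of the 34 members, 1 of the 6 nodules stood apart by Dixon's ratio, the gap to the nearest nodule over the whole range, with a critical value of 0.625. Chance flags about 1 in 20 such groups, and nodules of 1 mouse are not independent. The ratio was taken for members only, so no share over all genes stands beside this count. Over the 10669 genes tested, the small nodule of mouse 15 was the highest for 35.1% and the big nodule of mouse 25 for 22.4%. The small nodule of mouse 15 was the high one for Fgf21 (ratio 0.8451), Acadm (0.8001), Ehhadh (0.7677), Crat (0.7487), Slc27a2 (0.7005), Etfdh (0.6427) and Pex11a (0.625). The big nodule of mouse 25 was the high one for Acaa1a (0.8032), Acads (0.6594) and Etfb (0.6528). For Vnn1 the big nodule of mouse 8 was the low one (0.688).

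The nodule difference minus the thymus difference, tested as an interaction term with limma at an adjusted p under 0.05, was called for 18 members. Among shuttle and mitochondrial genes its log2 value was -1.532 for Etfdh, -1.255 for Cpt2, -1.201 for Slc25a20, -1.083 for Acsl1, -0.9627 for Decr1, -0.8871 for Eci1, -0.8633 for Hadh, -0.8265 for Acadvl, -0.7469 for Acaa2 and -0.5907 for Acadm. Among peroxisomal genes it was -2.187 for Acaa1b, -1.338 for Ehhadh, -1.136 for Pex11a, -1.125 for Hsd17b4, -0.9937 for Acot4 and -0.9424 for Acaa1a. Acot4 was at 0.0504 to 0.135 FPKM in thymi, below the filter there, so its value restates the nodule difference. It was -1.368 for Acot1, and Bdh1 was the one member above 0, with 0.9567.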

How the results depend on the processing

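Of the 21 members called between nodules and livers, 14 kept their direction and call in every alternative in which they were tested, and 0 reversed. These were 17 alternatives for each but Acot1, which had 16 because the stricter filter removed it. Acaa1a was lost with big nodules alone, Acaa2 with quantile normalization, Etfa in 2 alternatives, Acadm and Slc27a2 in 7 each, Ehhadh in 9 and Cpt1a in 10. Members higher numbered 1 with a pseudocount of 0.1, no filter, the stricter filter (5 FPKM) or median-of-ratios scaling, and 1 to 4 with a replicate left out. Over all genes, 2216 were lower with median-of-ratios scaling and 1543 higher with the stricter filter; equal sums gave 3765 higher and 1013 lower, and quantile normalization 2144 higher and 2041 lower. Ppargc1a turned to -0.0361 with quantile normalization and -0.0835 with big nodules alone, and Rxra to -0.0823 with median-of-ratios scaling and from -0.00271 to 0.31 with a replicate left out. Leaving out 1 nodule, of mouse 15 or 25, was chosen after seeing the data.

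Between thymi, 0 to 4 genes were lower and 0 to 7 higher with a replicate left out, the upper values without normal thymus 2; all other alternatives gave 0. Between nodule sizes, leaving out a mouse gave -0.13 to 0.68 for Acads and -2.27 to 0.32 for Vnn1. With mouse as a replicate block for pairing, 0 members were called between sizes, and in the organ interaction 18 were lower and 1 higher. The interaction gave 9 to 18 members lower and 0 to 1 higher with a replicate left out (0 without model mouse 25), 2 higher with small nodules alone, and 1513 genes lower with median-of-ratios scaling. Of its 18 calls, 7 were kept in all 17 alternatives.

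For transcripts, small nodules alone gave 8 members lower, 1 higher and 706 of all transcripts lower. The stricter filter gave 1 member higher and 1272 transcripts higher, and equal sums 1 member higher. With a replicate left out, 3 to 14 members were lower and 0 to 3 higher, and 630 to 789 of all transcripts were lower and 1176 to 1389 higher. The cause of these shifts was not tested; fewer samples enter when a replicate is left out. Unknown depth limits low members such as Acot1, Acot3 and Acot4, for which no counting error can be given.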
